A study of Mus musculus with 12 samples.

Results

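H3K27ac and H3K4me3 were compared with each other at the chromatin regions that carried enough counts of either mark in wild-type mouse lung endothelial cells. The members are 9534 of 1192075 regions in the series' count table (0.8%), those with 10 or more counts in at least 2 of the 4 libraries of these marks. The libraries came from ACT-seq, a tagmentation assay on permeabilized cells: the antibody against the mark brings a Protein A and Tn5 fusion to chromatin, where Tn5 inserts adaptors for sequencing. The 4 libraries, 2 of H3K27ac and 2 of H3K4me3, are labelled WT and negative for the Cre recombinase. The same marks in 4 libraries labelled CSE-KO and Cre-positive, 2 per mark, did not enter the rule and were used to read the same regions in other libraries. They did name regions of the table, as given below. CSE is cystathionine gamma-lyase, an enzyme of cysteine synthesis. The labels used here give no age, Cre driver or floxed allele, and do not state whether the replicates are different animals. A p-value here sets the marks against the spread between libraries of a mark, and that spread may be technical.

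H3K27ac is an acetylated lysine in the tail of histone H3 that marks active promoters and active enhancers, and it also neutralizes the charge of that lysine. H3K4me3 is a trimethylated lysine of the same tail that is concentrated at the start sites of active and poised genes. Promoters in use therefore commonly carry both marks, while active enhancers carry H3K27ac with little H3K4me3.

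The table names each region by a list number and a running number, with neither a position, a length nor a gene. Promoters, enhancers, endothelial marker genes and sequences were for this reason not analysed here, and levels are compared between marks within a region rather than between regions of unknown length. Each list number was read as the library in which the regions were called. Of the members, 1644 belonged to lists of H3K27ac libraries and 2200 to lists of H3K4me3 libraries, which favour their own mark. A further 5690 belonged to lists of the H3K23ac libraries, another acetylation of histone H3, and were named by neither mark. Values for these regions are given apart beside the main results.

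The WT H3K27ac libraries held 1351854 and 1110254 counts, and the WT H3K4me3 libraries 396441 and 563330. In WT, H3K27ac counts were spread over many regions and H3K4me3 counts were gathered in fewer. H3K27ac counts fell in 422077 and 365075 regions, of which 3.45% and 3.19% had 10 or more. H3K4me3 counts fell in only 97961 and 83175 regions, of which 8.39% and 14.9% had 10 or more. The shares with 10 or more were not in this order in every CSE-KO library. They were 29% and 3.27% for CSE-KO H3K27ac and 12.2% and 9.81% for CSE-KO H3K4me3. The 29% was in H3K27ac replicate 1, the deepest library with 4242014 counts, and the part of depth in these shares was not tested. The members took 6.73% (Wilson 95% interval 6.69 to 6.77) and 8.08% (8.03 to 8.13) of the H3K27ac counts. They took 35.6% (35.4 to 35.7) and 34.1% (34 to 34.3) of the H3K4me3 counts. The group means were 7.4% ± 0.954 and 34.9% ± 1.02 (SD, n = 2 each), and the libraries of the marks did not overlap. In the CSE-KO libraries, whose counts the rule did not use, the means were 6.48% ± 0.0543 and 34% ± 2.21 (SD, n = 2 each). With 2 libraries against 2, an exact permutation test cannot give a two-sided p below 0.333, so none was run. The intervals allow for counting error alone, and whether PCR copies of a molecule were removed before counting is not given in the sources used here.

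Few regions carried both marks at a depth of 10 counts. A mark is called carried here where both of its libraries had 10 or more counts. By that measure 410 of 9534 regions carried both marks (4.3%), 3294 carried H3K27ac only (34.6%), 5244 carried H3K4me3 only (55%), and 586 had 10 counts in 1 library of each mark (6.15%). The shared regions were 11.1% of the 3704 that carried H3K27ac and 7.25% of the 5654 that carried H3K4me3. Over the whole table of 1192075 regions, the same 3704 and 5654 carried the marks. Either mark was thus carried in a far larger share of the regions with the other mark than of all regions. That base includes 560127 regions (47%) without a count in any of the 12 libraries, and the contrast rests in part on it. The part of region length was not tested. Of the 5690 regions in H3K23ac lists, 289 carried both (5.08%), or 13.5% of those with H3K27ac and 8.36% of those with H3K4me3. Because a region enters the comparison through either mark alone, the large single-mark groups follow in part from the rule.

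**Figure D1:**
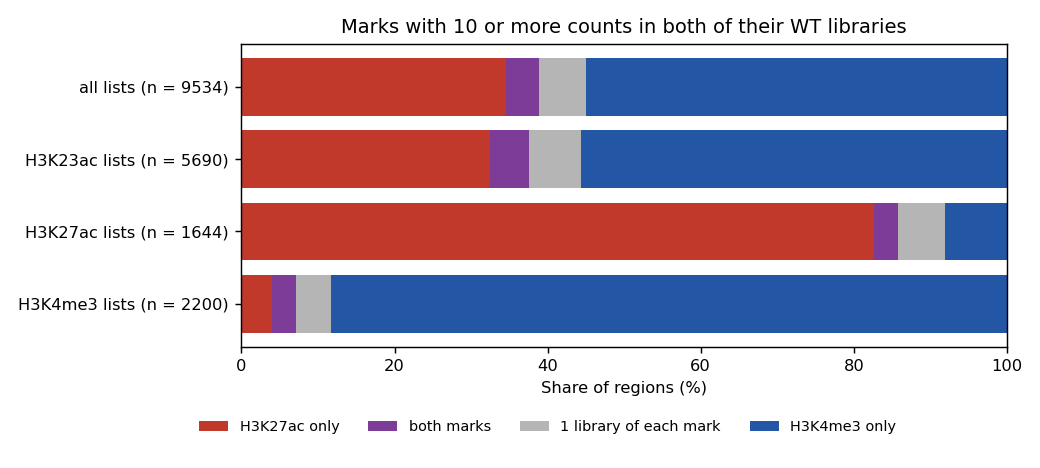
Share of regions (x axis, %) by the marks carried in WT, for all lists and for the lists of each mark. Regions with both marks make up 3.14% to 5.08% of each list group, and the single-mark groups lean to the mark whose libraries named the list.

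The number of shared regions moved with the count asked for. It was 1872 with 5 counts in both libraries of each mark, 56 with 20 counts, and 21 with the same relative level in each library, 25.2 CPM (the region's count scaled to the library's total in the table). That level is 10 counts in the shallowest library, WT H3K4me3 replicate 1, and 34.1 counts in WT H3K27ac replicate 1. Without WT H3K27ac replicate 1 the number was 809, and without its replicate 2 it was 706, since 1 library then decided for the mark. A limit of the table bears on the same count. Of the regions in their own list, 76.3% and 75.5% had no count in the 2 WT H3K27ac libraries and 72% and 53.2% had none in the WT H3K4me3 libraries. How reads that lie in regions of several lists were counted is not given in the sources used here, and its part in the number of shared regions, in the regions without the other mark and in the rank correlations was not tested.

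Below 10 counts the marks were not alike in how they overlapped. Regions that carried H3K4me3 only mostly held some H3K27ac: 80.5% of the 5244 had a count in both H3K27ac libraries, with a median of 3 counts in each. Regions that carried H3K27ac only often held no H3K4me3: 1322 of 3294 (40.1%) had no count in either H3K4me3 library, and 23.7% had a count in both. The reverse, H3K4me3 with no H3K27ac count, was found in 137 of 5244 regions (2.61%). Within H3K23ac lists the shares without the other mark were 34.5% and 2.24%. The H3K27ac libraries were deeper and spread over more regions, and the part of either in these shares was not tested. Of the 622414 regions outside the rule that had a count in any of the 12 libraries, 43.5% had a count in both H3K27ac libraries and 4.82% in both H3K4me3 libraries. On the CPM scale, H3K27ac averaged 3.33 in the regions with H3K4me3 only and 1.49 outside the rule, and H3K4me3 averaged 3.94 in the regions with H3K27ac only and 1.05 outside the rule. An absent mark is limited only to the level of 3 counts over its 2 libraries, 3.13 CPM for H3K4me3 and 1.22 CPM for H3K27ac.

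Shared regions were strong in H3K4me3. Their median was 30 and 34 counts in the H3K4me3 libraries, against 17 and 23 in regions with H3K4me3 only. In H3K27ac their median was 14 and 16 counts, against 14 and 14 in regions with H3K27ac only. The highest H3K4me3 counts of shared regions, 435 and 409, also exceeded those of the regions with H3K4me3 only, 143 and 336. The same order was seen when strength was read in other libraries. Members with 10 counts in both CSE-KO H3K4me3 libraries were put into 4 groups of equal size by their CSE-KO level. The share that carried both marks in WT was 2.49%, 4.64%, 6.47% and 17.7% from the weakest to the strongest group (1206 regions each). The median WT H3K27ac level in these groups was 2.54, 2.91, 3.57 and 5.53 CPM. Ordered by CSE-KO H3K27ac instead, the shares were 5.87%, 8.93%, 10.8% and 12.7% (784 or 785 regions each). The median WT H3K4me3 level was then 17 CPM in the weakest group and 3.78, 3.92 and 3.78 CPM in the others. The median WT H3K27ac level of the weakest group was 8.94 CPM, near the 10-count limit of 7.4 and 9.01 CPM in the 2 libraries. Regions low in a mark become members through the other, and the part of that and of the limit in these values was not tested. For regions of H3K23ac lists the shares by H3K4me3 group were 2.9%, 5.14%, 7.77% and 19.2%, and by H3K27ac group 5.66%, 9.37%, 13.3% and 17%. A longer region can hold more counts of both marks, and since lengths are not in the table this was not tested.

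Among the shared regions, peak12_6607 was, in the lists of the 2 marks, the region whose lowest CPM over the 4 libraries was highest. It held 74 and 48 counts of H3K27ac and 94 and 118 of H3K4me3, or 49 ± 8.14 and 223 ± 19.5 CPM (SD, n = 2 each). Both libraries of H3K4me3 stood above both of H3K27ac, in counts and in CPM. In CSE-KO it held 129 and 64 counts of H3K27ac and 101 and 82 of H3K4me3. Its log2 fold change of H3K27ac over H3K4me3 was 0.99 with TMM factors (edgeR adjusted p = 0.117) and -2.18 with total counts (edgeR adjusted p = 0.000128), so scaling decided its sign. The region chosen in this way from the H3K23ac lists was peak1_15678. It held 544 and 156 counts of H3K27ac and 192 and 84 of H3K4me3, or 271 ± 185 and 317 ± 237 CPM (SD, n = 2 each), so that the libraries of the marks overlapped in CPM. Here too the sign followed the scaling, with a log2 fold change of 3.01 with TMM factors (edgeR adjusted p = 0.000235) and -0.21 with total counts (edgeR adjusted p = 0.722). The first value did not pass the threshold with edgeR's own filter (3.21) or without WT H3K4me3 replicate 2 (2.38), and was 1.75, 3.62 and 4.12 without H3K27ac replicates 1 and 2 and H3K4me3 replicate 1. Replicate 1 was the higher library for both marks, and replicate 1 of H3K27ac held the highest count of that library. It was also high in the WT H3K23ac libraries, with 371 and 259 counts.

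Replicates of a mark ranked the regions alike, and the marks ranked them in opposite order among the members. Across the 9534 regions Spearman's coefficient was 0.76 between the H3K27ac replicates and 0.822 between the H3K4me3 replicates. Between the marks the 4 pairs of libraries ran from -0.557 to -0.472, and the mean levels gave -0.552. Regions of H3K23ac lists gave -0.51 for the mean levels, with 0.747 and 0.813 between replicates. The CSE-KO libraries sorted with their own mark: pairs of a WT and a CSE-KO library of the same mark ran from 0.733 to 0.86.

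The negative sign depended on which regions were ranked. Over the 22397 regions with at least 1 count in each of the 4 libraries the coefficient was 0.127, and over the 410 shared regions it was 0.182 (0.202 over the 289 in H3K23ac lists). Over 2438 regions chosen without either mark, by 10 or more counts in both WT H3K23ac libraries, it was 0.123, with 0.635 between H3K27ac and 0.858 between H3K4me3 replicates. Over the 532764 regions with any count in the 4 libraries it was -0.0338, and with 20 or more counts summed over them it was -0.606 (21052 regions). Restricted to H3K23ac lists, the first of these sets gave 0.159, the H3K23ac-chosen set 0.147, the set with any count 0.0876, and the set with 20 summed counts -0.558. A rule that asks for counts in some but not all libraries keeps strong regions of either mark and drops regions low in both. These coefficients are descriptions across regions, which are not replicates and share the depth of their libraries.

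**Figure D2:**
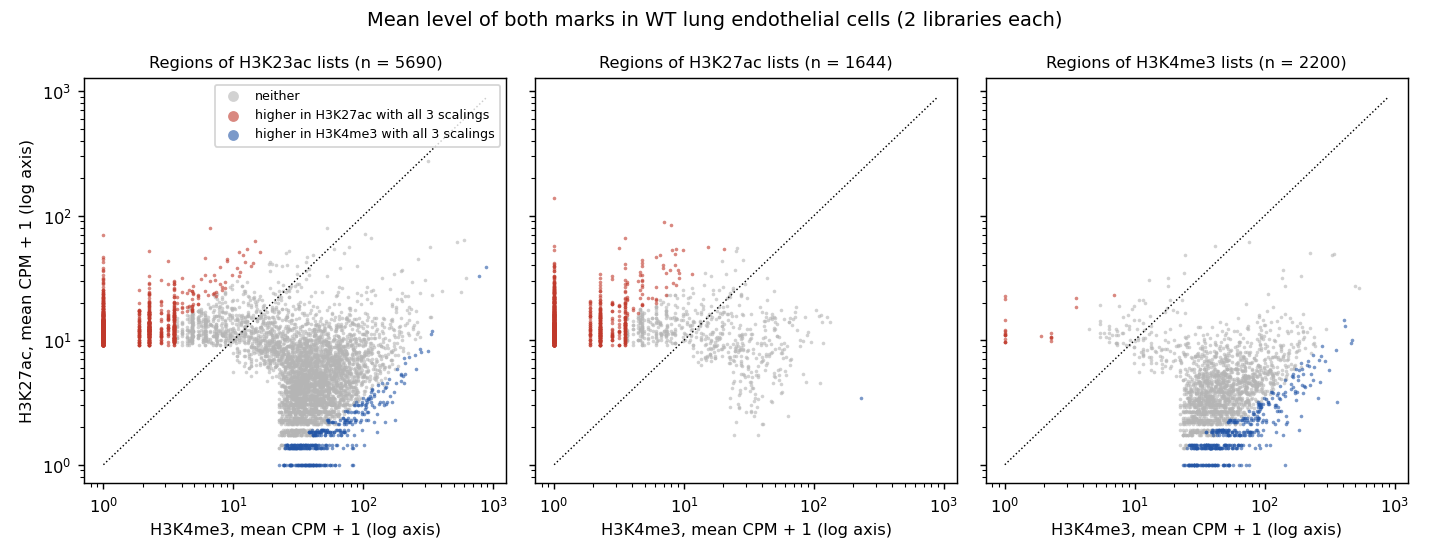
Mean level of H3K27ac (y axis) against H3K4me3 (x axis) in WT, in CPM plus 1 on log axes, 1 point per region, by list group; the dotted line marks equal levels. Points form an arm along each axis, with 2210 regions called higher in H3K27ac and 816 called higher in H3K4me3 under each of 3 scalings.

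Regions dominated by a mark were sought with edgeR's quasi-likelihood test of H3K27ac against H3K4me3 in the 4 WT libraries, adjusted by Benjamini-Hochberg over the 9534 regions. With TMM factors, which centre the typical member near equality, 3604 regions were higher in H3K27ac (37.8%) and 1001 higher in H3K4me3 (10.5%). With scaling by total counts, which compares shares of each library, the split turned to 2210 higher in H3K27ac and 5728 higher in H3K4me3. That scaling moved the log2 fold change of the median region from 0.31 to -2.82. With DESeq2's size factors the split was 3787 and 816, and the median 0.53. Which mark was the higher in a typical member is therefore a matter of scale in these data. H3K27ac accounted for 78.3% of the calls with TMM factors and for 27.8% with total counts.

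**Figure D3:**
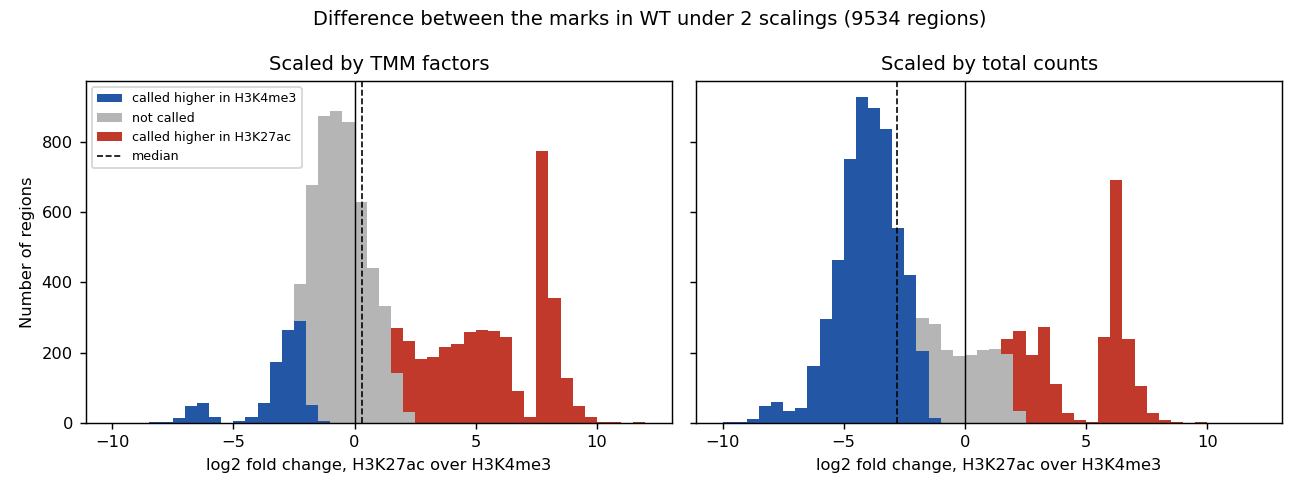
Number of regions (y axis) by log2 fold change of H3K27ac over H3K4me3 in WT (x axis), with TMM factors (left) and total counts (right), coloured by call; the dashed line is the median. The median lies at 0.31 on the left and at -2.82 on the right, and regions called higher in H3K4me3 number 1001 and 5728.

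Regions called the same way with all 3 scalings are the ones described as dominated below. H3K27ac dominated 2210 regions (23.2%) and H3K4me3 dominated 816 (8.56%). All 2210 were among the regions that carried H3K27ac only, and 810 of the 816 among those that carried H3K4me3 only. The tested counts are those by which regions became members, so these numbers and their p-values are not independent of the rule. The H3K23ac lists held 1157 and 387 of the dominated regions among 5690 regions (20.3% and 6.8%), both somewhat under the shares over all members. With TMM factors alone, these lists gave 2055 (36.1%) and 480 (8.44%). In the H3K27ac lists 1030 of 1644 regions were dominated by H3K27ac and 1 by H3K4me3, and in the H3K4me3 lists 23 and 428 of 2200. The lists of the marks thus favoured the mark that named them.

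The number of dominated regions changed most in fits without an H3K27ac library. Leaving out a library leaves 1 for its mark, which is then assumed to vary like those of the other mark, so these counts rest in part on that assumption. Without WT H3K27ac replicate 1 the calls with all 3 scalings came to 188 for H3K27ac and 101 for H3K4me3, and without its replicate 2 to 197 and 191. Without WT H3K4me3 replicate 1 they were 2438 and 612, and without its replicate 2 they were 1530 and 387. With TMM factors alone, regions higher in H3K4me3 numbered 468 and 434 without H3K27ac replicates 1 and 2, and 612 and 387 without H3K4me3 replicates 1 and 2. Asking for 20 or more counts summed over the 4 libraries gave 3373 and 1309 of 21052 regions (16% and 6.22%) with all 3 scalings. That sum names no mark, but the deeper H3K27ac libraries weigh more in it. Among the 11518 regions that it added to the members, 1847 were called higher in H3K27ac and 252 higher in H3K4me3.

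Most regions dominated by H3K27ac had no H3K4me3 count. Their median was 13 and 13 counts in the H3K27ac libraries and 0 and 0 in the H3K4me3 libraries, where the highest counts were 12 and 16. In 1322 of the 2210 (59.8%) no H3K4me3 count was found in WT, and in 55.1% of those in H3K23ac lists. All 1322 members without an H3K4me3 count were called this way, so these shares follow in part from the rule and the test. Against a floor of 3 counts over both H3K4me3 libraries, the median of the lower bounds for these 1322 regions was 3.51-fold on the total-count scale and 31.5-fold on the TMM scale. Over all 2210 the median log2 fold change, with such regions set to that bound, was 5.23 with TMM factors and 2.14 with total counts. None of the 2210 carried H3K4me3 at 10 counts in both libraries.

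The region peak9_69582, of the list of CSE-KO H3K27ac replicate 1, had the lowest p of those higher in H3K27ac. It held 222 and 125 H3K27ac counts, or 138 ± 36.5 CPM (SD, n = 2), and no H3K4me3 count in WT. This was at least 405-fold higher on the TMM scale and at least 45.1-fold on the total-count scale (edgeR adjusted p = 4.98e-06). In CSE-KO it held 853 and 312 H3K27ac counts and 10 and 4 H3K4me3 counts. Its counterpart from the H3K23ac lists was peak1_37885, with 82 and 86 H3K27ac counts, or 69.1 ± 11.9 CPM (SD, n = 2), and no H3K4me3 count in WT. It was at least 196-fold higher on the TMM scale and 21.8-fold on the total-count scale (edgeR adjusted p = 2.18e-05). In CSE-KO it held 204 and 91 H3K27ac counts and again no H3K4me3 count. H3K27ac was thus above H3K4me3 in each of the 4 libraries of that mark, in both genotypes.

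Most regions dominated by H3K4me3 had an H3K27ac count. Their median was 19 and 30 counts in the H3K4me3 libraries and 1 and 1 in the H3K27ac libraries, with H3K27ac counts of up to 38 and 56. The H3K27ac medians were also 1 and 1 over the 622414 regions outside the rule that had a count in any library. The call asks for H3K27ac low against H3K4me3 in these same counts, so the low medians follow in part from the call. Over all regions that carried H3K4me3 only, the H3K27ac medians were 3 and 3. In 137 of the 816 (16.8%) no H3K27ac count was found, and in 18.3% of those in H3K23ac lists. All 137 members without an H3K27ac count were called this way. The median log2 fold change, with those at their bound, was -2.69 with TMM factors and -5.68 with total counts. Of the 816, 6 carried both marks at 10 counts.

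The region peak6_7838, called in WT H3K4me3 replicate 2, had the lowest p of those higher in H3K4me3. It held 98 and 263 H3K4me3 counts and 1 and 4 H3K27ac counts, or 357 ± 155 and 2.17 ± 2.02 CPM (SD, n = 2 each). The log2 fold change by edgeR with TMM factors was -4.26 ± 0.79 (SE, adjusted p = 0.000202), and with total counts it came to -7.34. Without WT H3K27ac replicate 2 it was -5.64, without replicate 1 of that mark -3.75, and without H3K4me3 replicates 1 and 2 it was -4.63 and -3.75, past the threshold each time. In CSE-KO it held 116 and 111 H3K4me3 counts and 9 and 3 H3K27ac counts. Its counterpart from the H3K23ac lists, peak7_76518, held 33 and 46 H3K4me3 counts, or 82.4 ± 1.12 CPM (SD, n = 2), and no H3K27ac count in WT. That is at least 7.52-fold higher in H3K4me3 on the TMM scale and 67.6-fold on the total-count scale (edgeR adjusted p = 0.000836). In CSE-KO it held 45 and 27 H3K4me3 counts and 7 and 1 H3K27ac counts. The H3K4me3 libraries lay above the H3K27ac libraries in both regions and both genotypes.

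**Figure D4:**
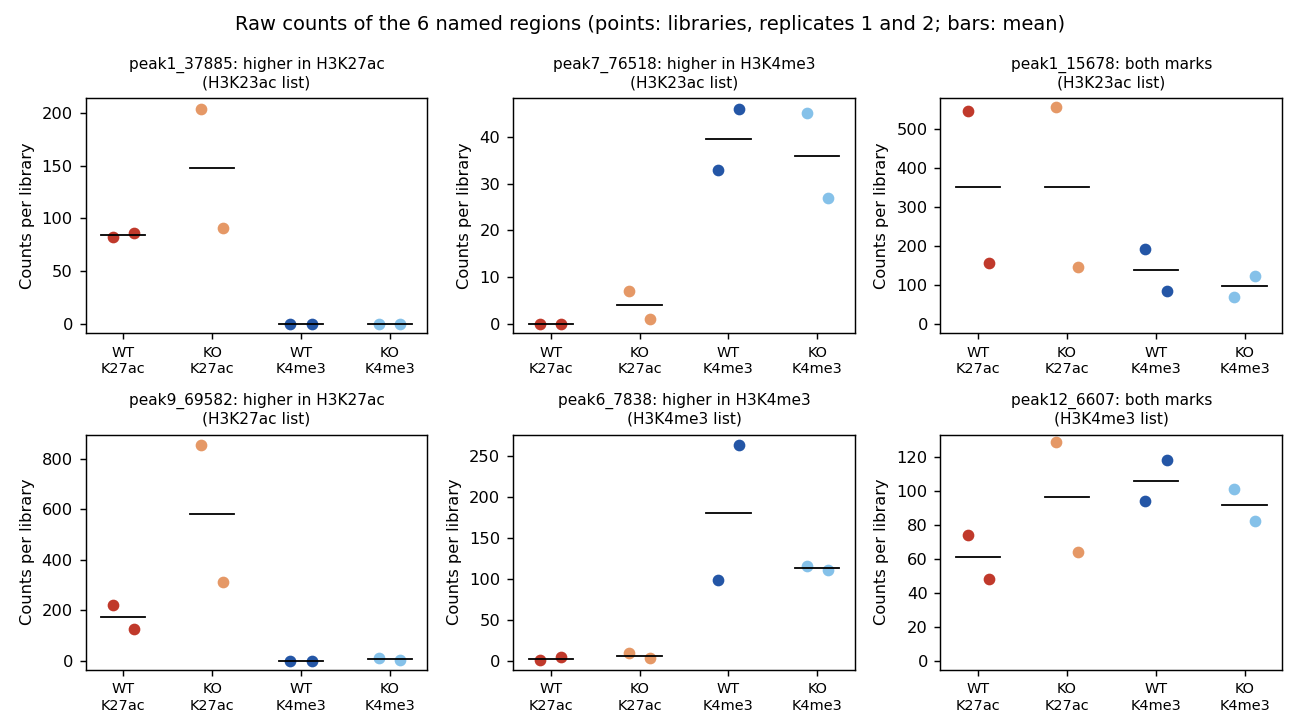
Counts per library (y axis, raw counts) of the 6 regions named in the text, for both marks in WT and CSE-KO; points are libraries and bars are means of 2. Regions chosen as dominated by a mark separate the marks in both genotypes, from 82 and 86 against 0 and 0 for peak1_37885 in WT. At peak1_15678 the marks overlap in WT, with 544 and 156 counts of H3K27ac and 192 and 84 of H3K4me3.

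The CSE-KO libraries were tested for the same difference between the marks. They did not enter the rule or the WT calls, but 5727 of the members belong to lists of CSE-KO libraries, 2260 of them to lists of these 4 libraries. The 2223 members in the lists of the WT H3K23ac libraries, named by neither mark and by no CSE-KO library, are therefore counted on their own as well, a split added after the data were seen. With TMM factors the edgeR test called 3760 members higher in H3K27ac (39.4%) and 1765 higher in H3K4me3 (18.5%) in CSE-KO. With all 3 scalings it called 1865 (19.6%) and 1088 (11.4%). Of the 2210 regions dominated by H3K27ac in WT, 1510 were called the same way with all 3 scalings in CSE-KO (68.3%) and 0 the opposite way. Of the 816 dominated by H3K4me3, 370 were called the same way (45.3%) and 0 the opposite way. Within H3K23ac lists 725 of 1157 (62.7%) and 156 of 387 (40.3%) were called the same way. In the lists of the WT H3K23ac libraries alone these numbers were 295 of 474 (62.2%) and 64 of 154 (41.6%), with 0 called the opposite way. Over all 2223 members of these lists, 16.2% were called higher in H3K27ac and 9.9% higher in H3K4me3 in CSE-KO. The sign of the log2 fold change was the same in both genotypes in 88.5% of all members and 86.6% of those in H3K23ac lists, with Spearman's coefficient of 0.888 in each set. Without CSE-KO H3K27ac replicate 1, the deepest library, regions higher in H3K4me3 with TMM factors numbered 796 in place of 1765, and without its replicate 2 they numbered 860.

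**Figure D5:**
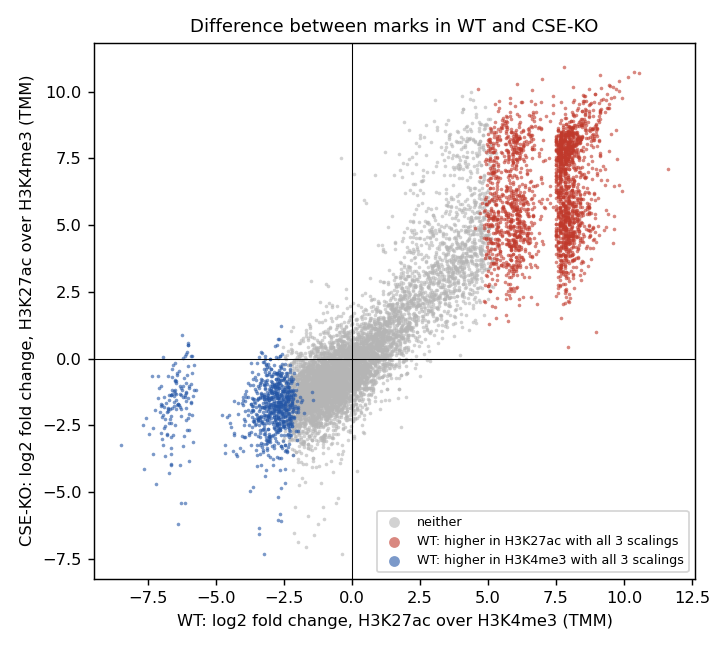
Log2 fold change of H3K27ac over H3K4me3 in CSE-KO (y axis) against WT (x axis), with TMM factors, 1 point per region, coloured by the WT call. Of the 2210 and 816 regions dominated by a mark in WT, 0 were called the opposite way in CSE-KO.

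Whether the difference between the marks depended on genotype was tested as an interaction in the 8 libraries. By edgeR 0 of 9534 regions (0%) passed the threshold. The lowest adjusted p was 0.693, and the unadjusted p lay under 0.05 at 627 regions. By DESeq2 there were 0 calls too, and 324 regions had an unadjusted p under 0.05. A p that misses the threshold does not show that the genotypes were alike at these regions. The marks carried were also read in CSE-KO. Of the 410 regions with both marks in WT, 282 carried both in CSE-KO (68.8%), 96 H3K4me3 only (23.4%), 19 H3K27ac only and 13 neither. Of those with H3K27ac only, 63.7% carried H3K27ac only in CSE-KO and 2.98% both. Of those with H3K4me3 only, 70.9% carried H3K4me3 only and 7.82% both. Within H3K23ac lists the shares found again were 67.5% for both marks, 61.3% for H3K27ac only and 71.3% for H3K4me3 only. Depth differs between the genotypes, most of all in CSE-KO H3K27ac replicate 1 with 4242014 counts.

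Among members outside the H3K23ac lists, H3K23ac, which the rule did not use, was most often found where both marks were. Those lists, left out here, held 289 of the 410 shared regions. The WT H3K23ac libraries had 80.8% and 93.4% of their counts in their own lists, so the values below rest on part of the remainder. A count in both WT H3K23ac libraries was found in 79 of 121 regions with both marks (65.3%), 666 of 2077 with H3K4me3 only (32.1%) and 163 of 1446 with H3K27ac only (11.3%). No H3K23ac count was found in 5.79%, 20.7% and 53.6% of these regions. The mean level in WT H3K23ac replicate 1 was 19.1, 5.92 and 2.78 CPM in the same order, and in replicate 2 it was 11.6, 2.9 and 0.97 CPM. Both libraries had the same order. As with the other marks, the part of region length in this was not tested, nor that of how reads in regions of several lists were counted.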

How the data were processed

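The authors deposited 1 table of raw, whole-number counts, a row per region and a column per library, with no normalization applied. The submitters' processing notes name ChIPseeker 1.38.0, Subread, R 4.3.3 and edgeR 4.0.16, beside the builds GRCm39 and mm10, without saying what each was used for. The sources used here do not give the aligner, the peak caller or the treatment of overlapping regions. For 12 of 12 lists, no library put a larger share of its counts there than the library of the same number. No count in any library was found for 560127 regions (47%).

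Members had 10 or more counts in at least 2 of the 4 WT libraries. The two-sided test was edgeR 4.0.16 in R 4.3.3, glmQLFit with glmQLFTest, with TMM factors, no covariates and a Benjamini-Hochberg threshold of 0.05. Positive fold changes are higher in H3K27ac. CPM uses the library's total count in the table. Rank correlations of mean levels use log2 of CPM plus 1 with TMM-scaled library sizes in place of the totals. Those of pairs of libraries use raw counts. Standard errors are the log2 fold change over the root of edgeR's F. The alternative test was DESeq2 1.42.0. Tables were made in Python 3.11.15 with pandas 2.3.3 and scipy 1.17.1. The fit was run on simulated data in which 200 regions were changed and the others were equal between the marks. Such data do not test the choice of scaling. Named are, per direction, the called region of lowest p in the H3K23ac lists and in the other lists, and the shared region with the highest lowest CPM in each. Members and lists were chosen with earlier results of these data known, and the requirement of agreement over 3 scalings was added after the data were seen. A chi-square comparison of the WT replicates gave 2.12 (H3K27ac) and 3.5 (H3K4me3) times its degrees of freedom, more than counting noise, so replicates were kept apart. Alternatives were other scalings, filters, tests and counts, a replicate block, and each library left out.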

Additional observations from a re-analysis of the deposited data

How the results depend on the processing

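Depth limits these results, with medians of 7 and 8 counts per member in the H3K27ac libraries and 12 and 14 in those of H3K4me3. Counts of regions below are given as higher in H3K27ac and higher in H3K4me3, with those of the H3K23ac lists after them, and the cause of the changes was not tested unless the alternative's construction gives it. The values were 3604 and 1001, with 2055 and 480 in H3K23ac lists. With total counts they were 2210 and 5728, with 1157 and 3504. With 20 counts summed over the libraries they were 7426 and 1840, with 3831 and 890, of 21052 regions. With filterByExpr they were 1193 and 177, with 690 and 78, of 11366 regions. With 20 counts in 2 libraries they were 449 and 88, with 239 and 30, of only 2371 regions. Without a filter they were 1323 and 769, with 600 and 387, of 532764 regions. Regions higher in H3K4me3 numbered 388 with DESeq2's test (182 in H3K23ac lists) and 566 with a minimum log2 fold change of 1 (259). Without each library in turn the counts ran from 2525 to 3629 and from 387 to 612, with 1435 to 2095 and 179 to 290 in H3K23ac lists.

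The replicate numbers do not pair libraries by any label, and deviations of same-numbered WT libraries of the marks had a correlation of 0.0581. With the replicate block 502 regions were higher in H3K4me3 (227 in H3K23ac lists), and the calls with all 3 scalings came to 331 and 362. Those calls, 2210 and 816, ran from 188 to 2438 and from 101 to 612 without each library, and were 3373 and 1309 with 20 summed counts. In CSE-KO, 1865 and 6019 regions were called with total counts, 1088 were higher in H3K4me3 with DESeq2 size factors, and the counts ran from 2828 to 3730 and from 796 to 1535 without each library. The interaction stayed at 0 calls in each fit run.

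Regions with both marks numbered 1872 with 5 counts, 56 with 20 counts and 21 at an equal CPM, and 520 to 809 without each library. In H3K23ac lists the numbers were 1344, 45 and 17, and 351 to 579. The rank correlation of -0.552 was -0.0338 over regions with any count, -0.606 with 20 summed counts, 0.127 with a count in each library and 0.123 over regions chosen by H3K23ac, a set added after the data were seen, and ran from -0.564 to -0.503 without each library. In H3K23ac lists it was 0.0876, -0.558, 0.159 and 0.147, and ran from -0.524 to -0.454. The log2 fold change of peak1_15678, 3.01 with TMM factors, was -0.21 with total counts. That of peak12_6607, 0.99, was -2.18 with total counts and -0.43 without a filter. The 4 named regions dominated by a mark kept their direction and call in 14 of 14 alternatives each.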

Other observations

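Of 545 pairs of members that follow each other in running number within a list, 97 had both regions dominated by a mark with all 3 scalings. In 79 pairs H3K27ac dominated both regions, in 17 pairs H3K4me3 dominated both, and in 1 pair the regions were dominated by different marks. Across the 545 pairs Spearman's coefficient of the log2 fold changes was 0.728. In the H3K23ac lists it was 0.69 over 415 pairs, with 62 of 63 dominated pairs in the same direction. Most calls are of H3K27ac to begin with (73% over all members and 74.9% in H3K23ac lists), and the lists of a mark favour that mark, so a like direction is fixed in part by the list. The running numbers are labels of the table, and whether they follow the genome is not given in the sources used here.

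The rule's limit of 10 counts fell in a dense part of the data. At 1743 members the second-highest of the 4 counts was exactly 10, with medians of 20 summed H3K27ac and 10 summed H3K4me3 counts. At 2368 regions just outside it was 9, with medians of 19 and 5.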
